A study of Mus musculus with 12 samples.

Results

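The collagen alpha chain genes of mouse 3T3 fibroblasts were followed across the arrays of this experiment. They were taken as every probe set whose gene symbol is Col, a type number, the letter a and a chain number. This gave 42 genes of the 16475 probe sets tested. The rule uses no measured value, but the collagen genes were chosen with earlier results of these data known. Total RNA was hybridized to 12 Affymetrix Mm430_2.0 arrays, 3 per group. The groups were 3T3-ind-IER2 #11 cells (Klon11 in the labels) given 200 nM RSL for 24 h, the same cells given DMSO, parental NIH 3T3 cells given the same RSL treatment, and parental cells given DMSO. RSL is RheoSwitch ligand 1, which switches on a mouse Ier2 gene carried on a plasmid (pNEBR-X1) through a receptor and an activator made from a second plasmid (pNEBR-R1), and Ier2 is an immediate early gene. The inducible cells are 1 clone, and the labels list G418 and hygromycin in the medium of all 4 groups. The protocol is a single text for all samples, and whether the parental cells were grown with both drugs was not settled. With 1 clone, the difference between inducible and parental cells cannot be told apart from that between any clone and its parental line. Parental cells given RSL show the effect of the ligand in cells without the switch. Whether the biological replicates of the labels came from separate cultures is not stated, and each p-value therefore reflects array-to-array spread alone.

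Collagens are the main structural proteins of the extracellular matrix, and fibroblasts are their main source in connective tissue. Each collagen is a trimer of alpha chains wound into a triple helix, made either of copies of one chain or of chains from different genes that assemble in fixed ratios. Fibrillar collagens form the banded fibrils of skin, tendon and bone, FACIT collagens (fibril-associated collagens with interrupted triple helices) sit on the surface of those fibrils, type IV collagen forms the sheet of basement membranes, and type VI collagen forms beaded filaments around cells. The chains are hydroxylated and folded in the endoplasmic reticulum, exported, trimmed of their propeptides and crosslinked by lysyl oxidases outside the cell.

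Array values in this report are log2 expression levels, and a difference of 1 on this scale is a doubling of signal. Every adjusted p of a single gene is from limma with Benjamini-Hochberg adjustment over all 16475 probe sets, and calls were made below 0.05. Pairs of arrays correlated at 0.9981 to 0.9992 within a group, at 0.9978 to 0.9988 between treatments of the same cells, and at 0.9913 to 0.9932 between the inducible and the parental cells. The targeted gene went against the labels. Ier2 read 8.50, 8.48 and 8.66 on the inducible arrays labelled RSL, against 9.07, 9.04 and 8.96 on those labelled DMSO, a difference of -0.47 (standard error 0.05, adjusted p = 4.64e-05). In parental cells it read 8.82, 8.74 and 8.67 on the arrays labelled RSL, against 8.60, 8.61 and 8.53 on those labelled DMSO. No source used here gives the position of the Ier2 probes relative to the plasmid copy, so the arrays are called by their labels below, and each direction of an RSL effect in inducible cells rests on those labels. So do the difference of RSL effects and the assignment of the clone's values to DMSO or RSL in the comparisons of the cells. The study followed IER2 in #11 cells by qRT-PCR and western blot in other experiments, which are not analysed here. Of 10 fibroblast markers, 1 (Lum) lay below the first quartile of probe sets on all arrays, and the mean of the list was 9.67 to 9.82 over the 12 arrays. In inducible cells none of the markers of epithelium, macrophages, endothelium, chondrocytes, osteoblasts or smooth muscle was called for RSL over DMSO, and 1 of the 4 fat cell markers measured was (Fabp4, 0.27, adjusted p = 0.00436). Arrays of whole cultures cannot tell a change in the number of cells that make a transcript from a change in each cell.

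Of the 42 collagen genes, 12 lay below the first quartile of their array (a log2 level of 6.23 to 6.30) on all 12 arrays, 2 did so on some arrays and 28 on none. Those low on all arrays were Col11a1, Col24a1, Col9a3, Col14a1, Col19a1, Col4a3, Col4a4, Col8a2, Col6a5, Col13a1, Col17a1 and Col26a1. No detection call is among the values used here, so a low reading does not say whether the transcript was seen. The class lists named 44 collagen genes, and Col6a6 and Col28a1 were not analysed here. No level of one gene is set against that of another, since probe sets differ in how brightly they bind.

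Few collagen genes changed in the inducible cells labelled RSL. Col11a1 and Col27a1, which encode fibrillar chains of the minor type XI and type XXVII collagens, rose, and Col6a3, the long alpha 3 chain of type VI collagen, fell. The major fibroblast chains Col1a1, Col1a2 and Col3a1 did not pass the test. The 3 called genes are 7.14% of the 42, against 2.54% of all probe sets called in this comparison, 1.32% higher and 1.21% lower. At an unadjusted p under 0.05 the shares were 11.9% of the collagen genes, 5 of 42, and 12.3% of all probe sets.

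Col11a1 read 6.02, 6.08 and 6.06 on the inducible arrays labelled RSL, against 5.85, 5.87 and 5.90 on those labelled DMSO, 0.18 higher (standard error 0.033, adjusted p = 0.00569, 1.14-fold). The groups did not overlap, but all of these readings lie below the first quartile of their array. Col27a1 read 8.09, 8.08 and 8.06 under RSL, against 7.94, 7.91 and 7.97 under DMSO. It was 0.14 higher with arrays apart (standard error 0.033, adjusted p = 0.0336, 1.10-fold), and leaving out any 1 inducible array, or parental DMSO replicate 3, ended the call, with adjusted p-values of 0.0263 to 0.170 over all arrays left out in turn. Col6a3 read 10.42, 10.37 and 10.39 under RSL, against 10.71, 10.66 and 10.55 under DMSO, lower by group means (difference -0.24, standard error 0.046, adjusted p = 0.00776, 0.84-fold). All 3 arrays labelled RSL lay below all 3 labelled DMSO. Without inducible DMSO replicate 1 the adjusted p of Col6a3 was 0.0575, and over all arrays left out in turn its difference lay between -0.29 and -0.21. The one-way analysis that the methods name was also run, without moderated variances and on the inducible arrays alone. After Benjamini-Hochberg adjustment it called 0 of these genes and 1 of all probe sets.

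None of the type I, III and IV chains that fibroblasts make passed the test. Col1a1, the alpha 1 chain of type I collagen, read 11.30, 11.25 and 11.23 in inducible cells labelled RSL, against 11.29, 11.18 and 11.003 in those labelled DMSO. Its difference was 0.10 with a 95% interval of -0.03 to 0.23 (adjusted p = 0.583), and the groups overlapped. Col1a2, its partner chain, read 11.86, 11.85 and 11.82 under RSL, against 11.90, 11.87 and 11.86 under DMSO, a difference of -0.03 (adjusted p = 0.834) although the arrays did not overlap. Col3a1, the only chain of type III collagen, read 11.70, 11.77 and 11.61 under RSL, against 11.71, 11.72 and 11.63 under DMSO. Its arrays overlapped and its interval ran from -0.11 to 0.13 (adjusted p = 0.983). Col4a1 and Col4a2, the widespread chains of the basement membrane, differed by -0.01 and -0.05 (adjusted p = 0.978 and 0.794). Col5a2, which encodes a chain of the type V collagen that starts fibrils, was 0.11 apart between the groups with no overlap, at 9.60, 9.63 and 9.57 under RSL against 9.51, 9.49 and 9.47 under DMSO, but its adjusted p was 0.0704. Over the 39 genes that were not called, the 95% intervals reached no lower than -0.16 (Col4a2) and no higher than 0.23 (Col1a1).

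By class, the inducible arrays gave 2 calls among 11 fibrillar genes, 1 among 5 beaded filament genes and 0 in each of the others. Over all probe sets of this comparison, 2.54% were called and 12.3% had an unadjusted p under 0.05. None of 9 FACIT genes reached an unadjusted p under 0.05 there, and their differences lay between -0.02 and 0.08. The 6 type IV genes lay between -0.05 and 0.02 and also had none at that level. In classes this small, a count of 0 is no result about the class. The median difference was 0.01 over the 42 collagen genes and 0.00 over all probe sets. Arrays of the groups labelled RSL and DMSO did not overlap for 6 collagen genes, 14.3% of them, against 18.1% of all probe sets.

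**Figure D1:**
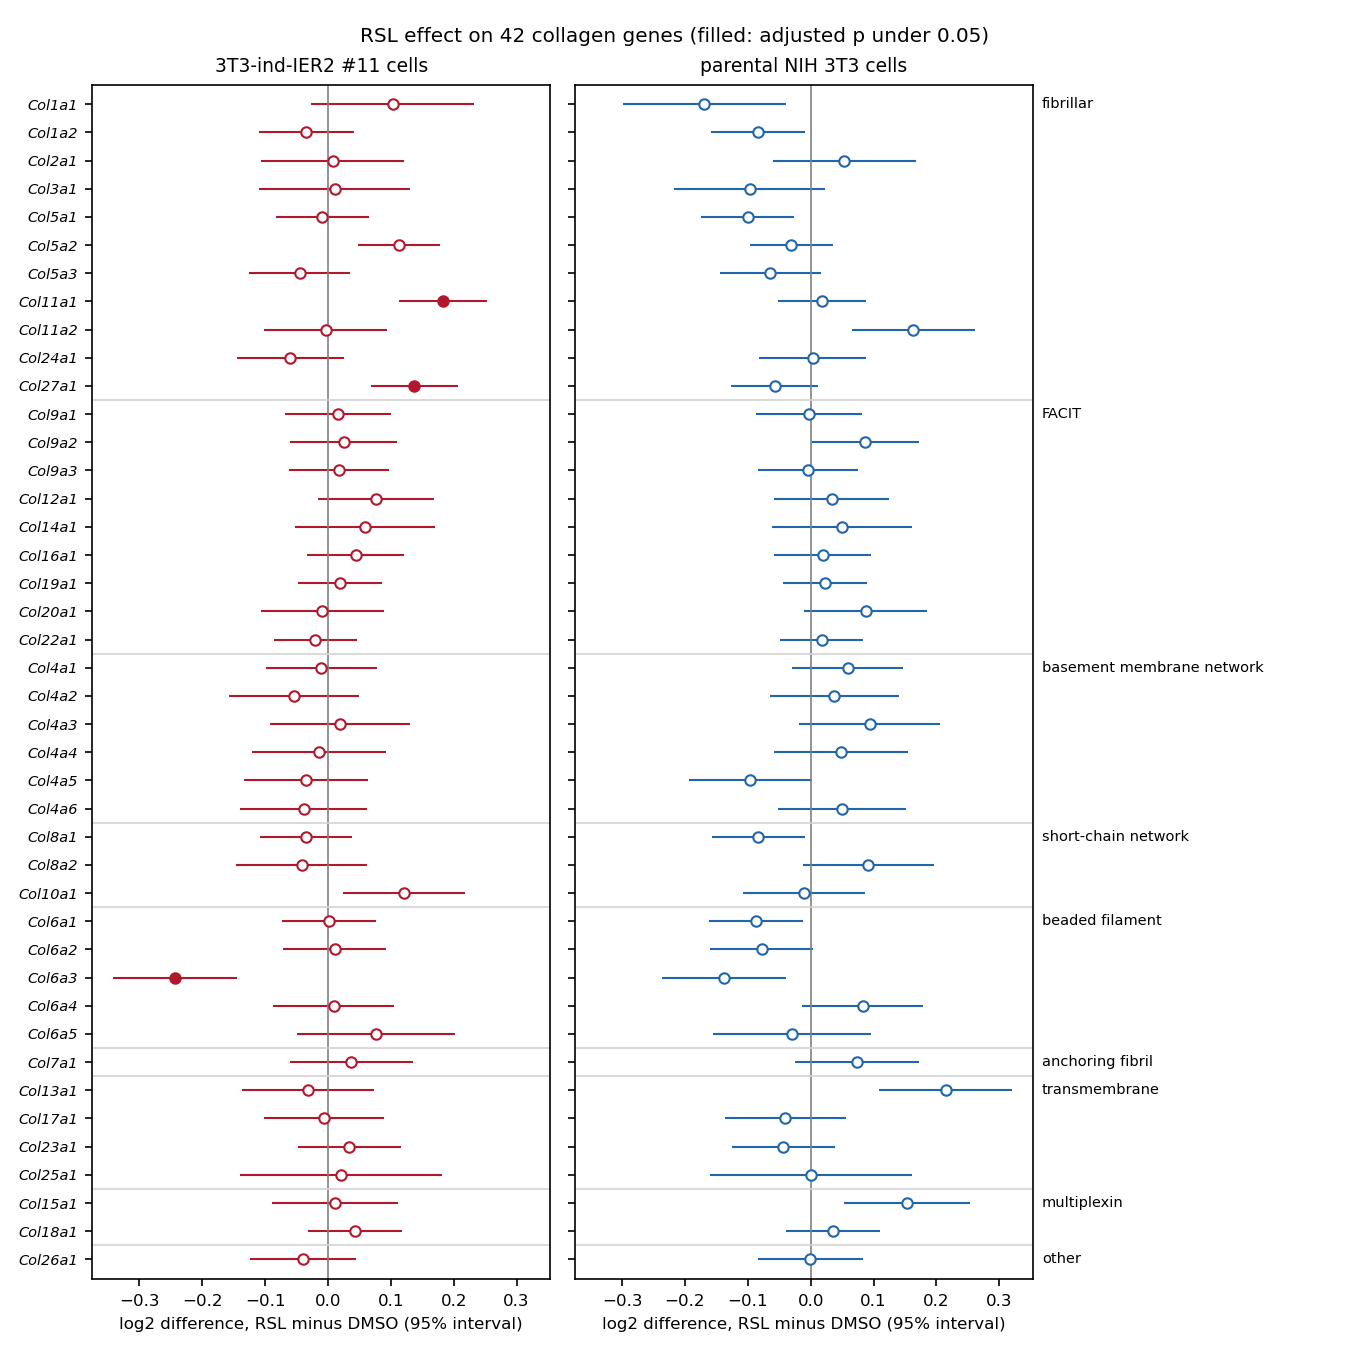
Log2 difference of RSL minus DMSO for each of the 42 collagen genes, ordered by class, in 3T3-ind-IER2 #11 cells (left, red) and parental NIH 3T3 cells (right, blue). Bars are 95% intervals and filled points have an adjusted p under 0.05: Col11a1, Col27a1 and Col6a3 at left, none at right.

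In parental cells given RSL, none of the 42 collagen genes passed the test, where 0.0303% of all probe sets did (5 probe sets). At an unadjusted p under 0.05 there were 10 collagen genes, 23.8%, against 9.71% of all probe sets, and arrays did not overlap for 9, 21.4%, against 13.3% of all. The largest difference was that of Col13a1, a collagen anchored in the cell membrane, which read 6.08, 6.19 and 6.08 in parental cells labelled RSL, against 5.99, 5.87 and 5.85 in those labelled DMSO. This is a difference of 0.21 with no overlap, at an adjusted p of 0.231, and every reading was below the first quartile. Col1a1 stood at -0.17 (adjusted p = 0.415), with 10.22, 10.19 and 10.38 under RSL against 10.47, 10.45 and 10.38 under DMSO, where RSL replicate 3 lay level with the lowest DMSO array. Col6a3, called in inducible cells, differed here by -0.14 (adjusted p = 0.388), at 10.34, 10.34 and 10.49 under RSL against 10.57, 10.49 and 10.54 under DMSO, and the groups overlapped.

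The RSL effects of inducible and parental cells were then set against each other as a difference of differences, and no collagen gene was called, against 0.662% of all probe sets. At an unadjusted p under 0.05 there were 7, 16.7% of the collagen genes against 9.07% of all. The gene nearest to a call was Col27a1, with an effect of 0.14 in inducible and -0.06 in parental cells, a difference of 0.20 (standard error 0.047, adjusted p = 0.077). For Col1a1 the difference of effects was 0.27 (95% interval 0.09 to 0.46, adjusted p = 0.241), for Col11a1 0.17 (adjusted p = 0.164) and for Col13a1 -0.25 (adjusted p = 0.169). Col6a3 had effects of the same sign in both cells, and they differed by -0.11 (95% interval -0.24 to 0.03, adjusted p = 0.701). None of the calls made in inducible cells is thus shown to differ from the parental response.

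**Figure D2:**
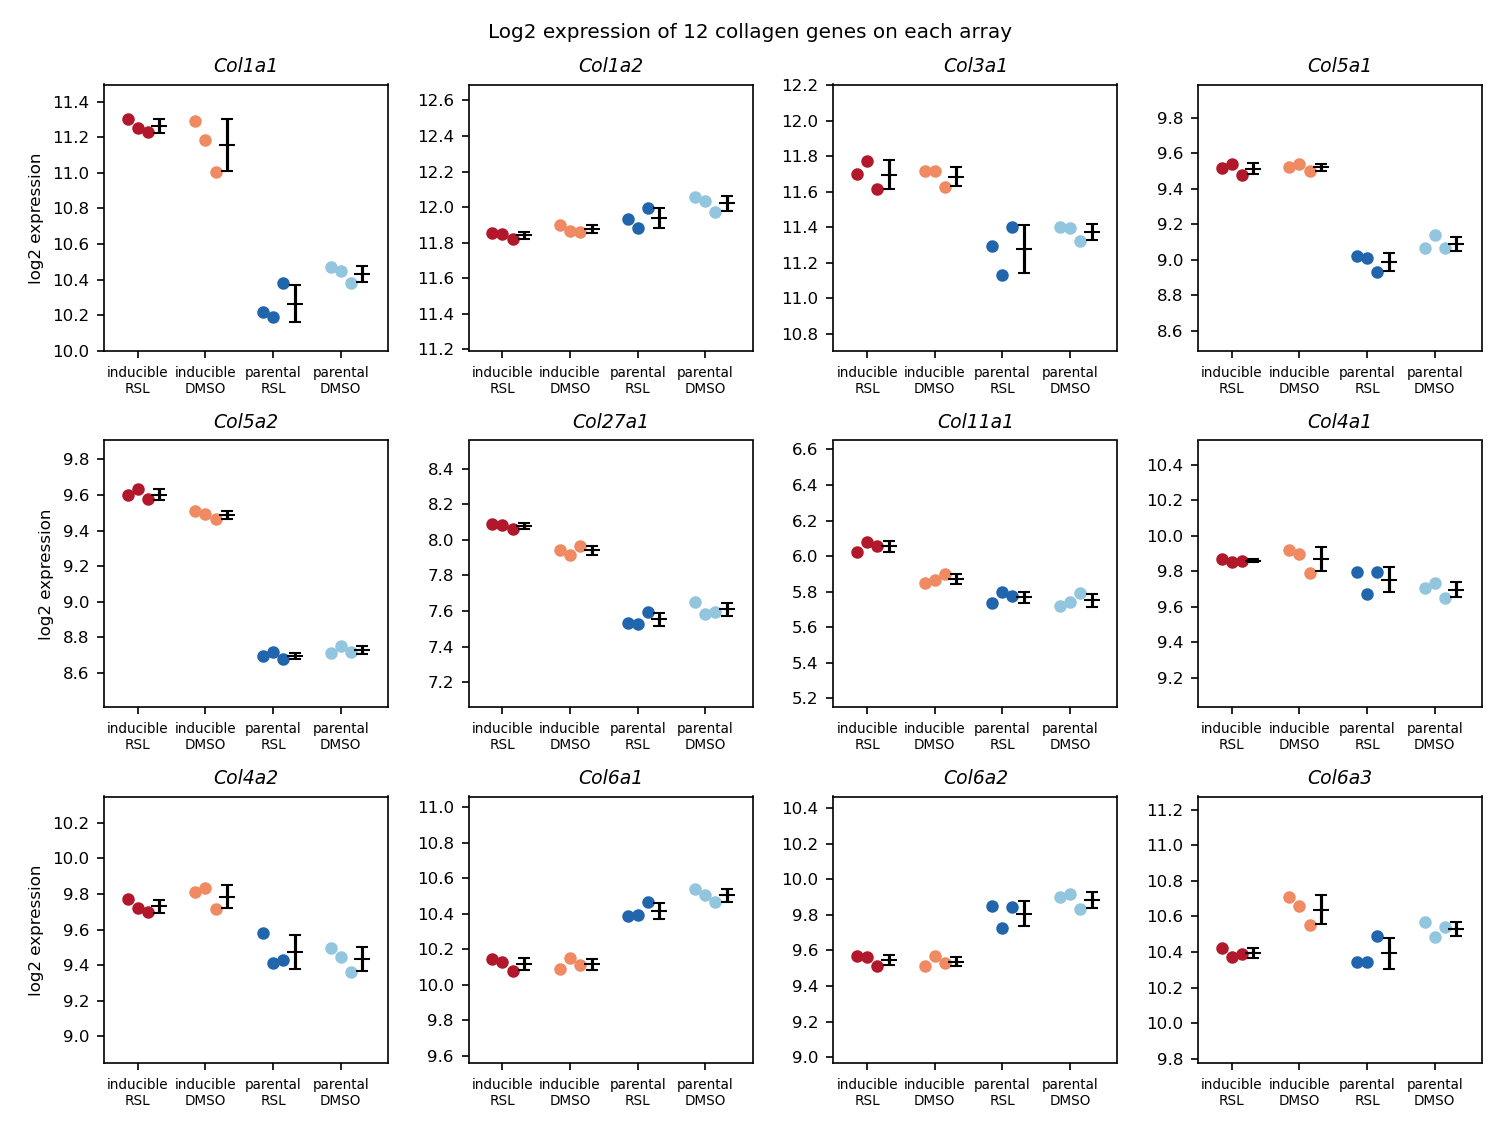
Log2 expression of 12 collagen genes on each of the 12 arrays, with group means and SDs as black bars (n = 3). Every panel spans the same number of log2 units, and the inducible arrays (red and orange) lie apart from the parental arrays (dark and light blue) for Col1a1, Col5a1, Col5a2, Col27a1, Col3a1, Col11a1, Col4a2, Col6a1 and Col6a2.

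More collagen genes were called between the inducible clone and its parental line than between treatments. Under DMSO, Col5a2, Col1a1, Col5a1 and Col3a1 stood higher in the clone, and the type VI chains Col6a1 and Col6a2 stood lower. In all, 13 collagen genes were called, 9 higher and 4 lower, which is 31% of the 42 against 29.7% of all probe sets. The share called is close to that of all probe sets, so the count is no result about the collagens. By direction, 21.4% were higher against 15.2% of all probe sets, and 9.52% were lower against 14.5%. Under RSL, 17 were called, 40.5% against 34.2% of all, with 10 higher (23.8% against 17.5%) and 7 lower (16.7% against 16.8%). Of the 13 called under DMSO, 12 were also called in the same direction under RSL. The exception was Col4a1, at 0.18 under DMSO and 0.11 under RSL (adjusted p = 0.00365 and 0.059 from limma). Group means came from different arrays under each treatment. Both comparisons share the clone, the parental line and a spread estimated over all 12 arrays, so the second is no independent test of the first. The 12 genes are 28.6% of the collagen genes, against 23.4% of all probe sets. Arrays of the clone and the parental cells did not overlap for 15 collagen genes under DMSO, 35.7% against 40.2% of all probe sets, and for 18 under RSL, 42.9% against 44.5%.

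Among the fibrillar genes, Col5a2 had the largest difference under DMSO. It read 9.51, 9.49 and 9.47 in the clone under DMSO, against 8.71, 8.75 and 8.72 in parental cells, a difference of 0.76 (standard error 0.031, adjusted p = 1.39e-11, 1.70-fold). Under RSL it read 9.60, 9.63 and 9.57 against 8.69, 8.72 and 8.68, a difference of 0.91 (adjusted p = 1.28e-12). No clone array came near a parental one. Col1a1 read 11.29, 11.18 and 11.003 in the clone under DMSO, against 10.47, 10.45 and 10.38 in parental cells, 0.73 higher (standard error 0.061, adjusted p = 1.23e-07, 1.65-fold). Under RSL its difference was 0.999 (standard error 0.061, adjusted p = 2.47e-09, 2.00-fold). Its partner Col1a2 went the other way. Col1a2 read 11.90, 11.87 and 11.86 in the clone under DMSO, against 12.06, 12.03 and 11.98 in parental cells, a difference of -0.15 (standard error 0.036, adjusted p = 0.00442). Under RSL it was at -0.10 (adjusted p = 0.0464), a call that 14 of 21 alternative settings ended, 9 of them with 1 array left out (adjusted p up to 0.194), and the arrays did not overlap under either treatment.

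Several other fibrillar chains were higher in the clone too. Col5a1, the partner of Col5a2 in type V collagen, read 9.52, 9.54 and 9.50 in the clone under DMSO, against 9.06, 9.14 and 9.07 in parental cells, 0.43 higher (standard error 0.035, adjusted p = 9.13e-08). Col27a1 read 7.94, 7.91 and 7.97 in the clone, against 7.65, 7.58 and 7.60 in parental cells under DMSO, 0.33 higher (adjusted p = 9.02e-07), and 0.52 higher under RSL (adjusted p = 3.27e-09). Col3a1 read 11.71, 11.72 and 11.63 in the clone, against 11.40, 11.39 and 11.32 in parental cells under DMSO, 0.31 higher (standard error 0.057, adjusted p = 0.000409). These 3 genes did not overlap between the cells. Col11a1 was 0.12 higher under DMSO (adjusted p = 0.0102) and 0.29 higher under RSL (adjusted p = 4.01e-06). The cartilage chain Col2a1, Col5a3 and Col24a1 were not called under either treatment, and Col11a2 was called only under RSL, at -0.17 (adjusted p = 0.0095, or 0.0579 without parental RSL replicate 2). Of the 11 fibrillar genes, 6 were higher and 1 lower under DMSO, and 6 were higher and 2 lower under RSL, where the shares of all probe sets were 15.2% higher and 14.5% lower under DMSO and 17.5% and 16.8% under RSL. Their median difference was 0.12 under DMSO and 0.29 under RSL, beside -0.01 and -0.02 over all probe sets.

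Col1a2 is the gene of the type I pair whose direction departed from that of Col1a1, and its promoter is shown for that reason. The 250 bases before its annotated start, at chr6:4505368-4505617 on the plus strand of GRCm38.p6 (RefSeq), have a GC content of 62.0%. Capitals mark matches to CCAAT, the box bound by NF-Y, and GGGCGG, the GC box bound by Sp1.
Col1a2: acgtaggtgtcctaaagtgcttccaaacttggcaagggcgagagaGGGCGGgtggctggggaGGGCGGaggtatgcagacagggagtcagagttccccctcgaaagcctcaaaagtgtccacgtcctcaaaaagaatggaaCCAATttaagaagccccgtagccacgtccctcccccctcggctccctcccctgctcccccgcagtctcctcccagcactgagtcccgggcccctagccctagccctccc
The CCAAT box lies 109 to 105 bases before the gene start, and GC boxes lie at 205 to 200 and 188 to 183. No match to TATAAA was found. Searched on both strands, CCAAT was found in 33.8%, GGGCGG in 32.7% and TATAAA in 12.4% of 32851 RefSeq promoter windows of this length, so such matches are common and describe the letters only.

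**Figure D3:**
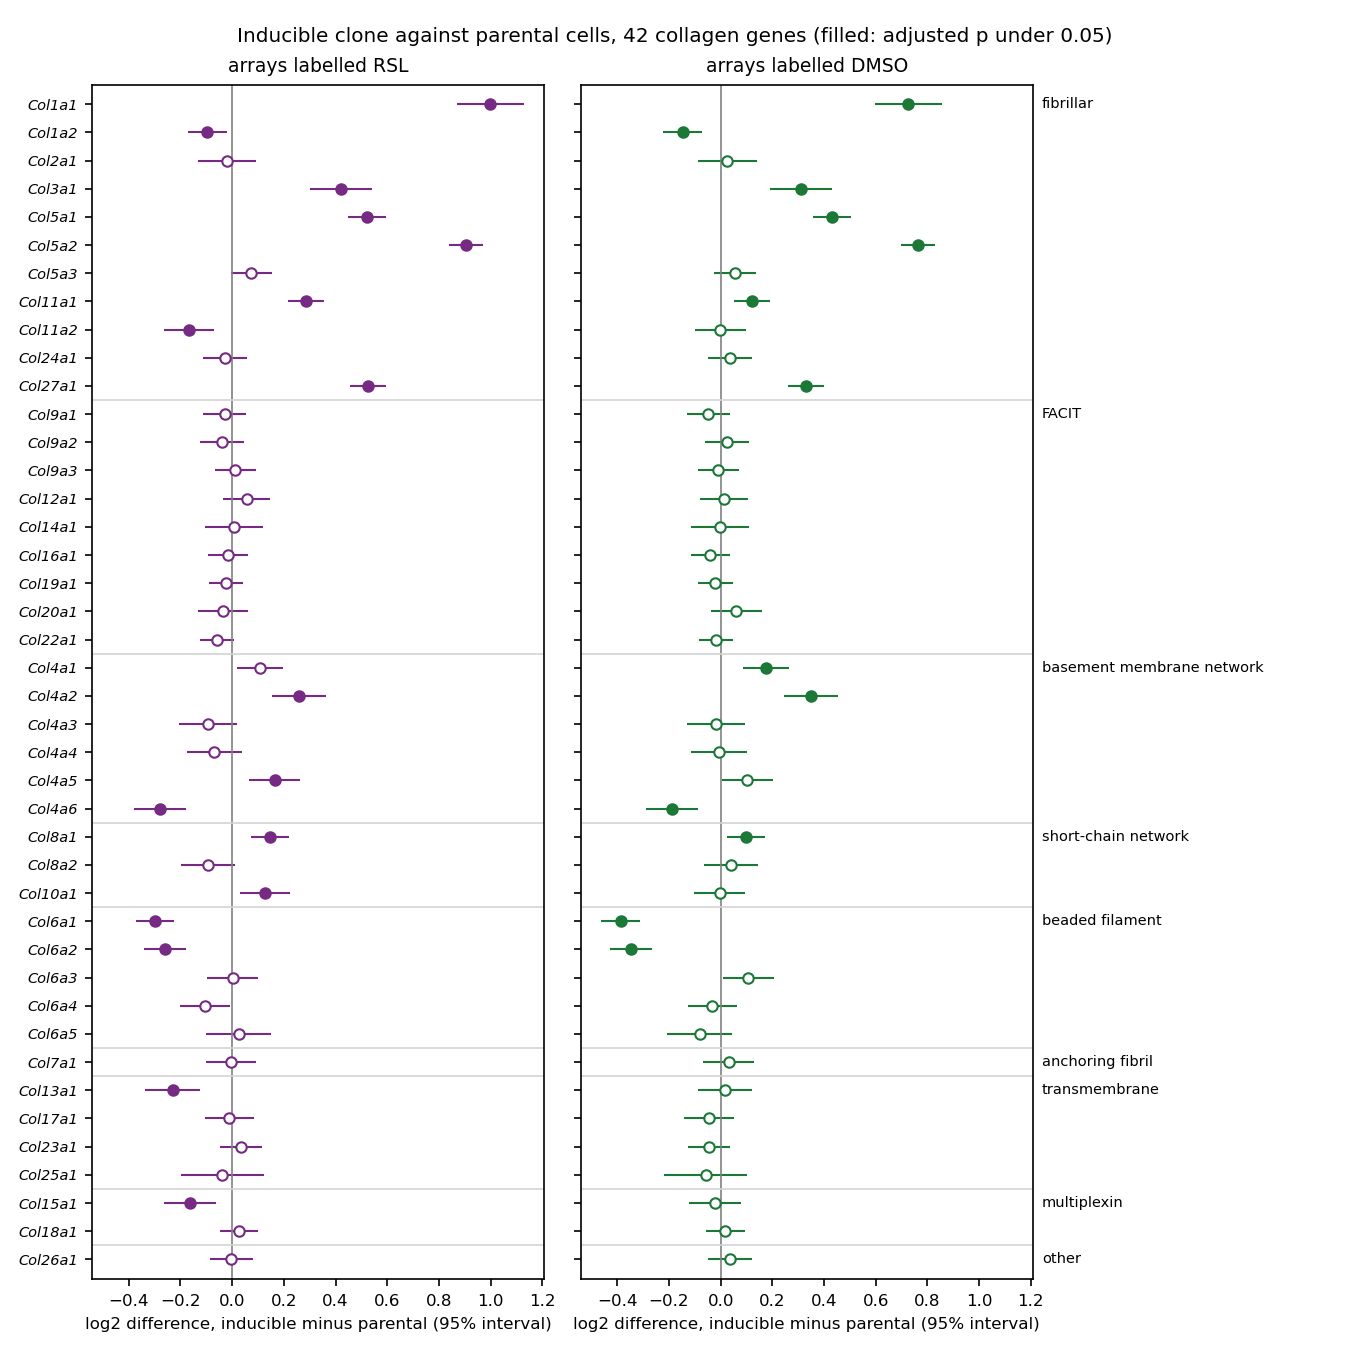
Log2 difference of inducible minus parental cells for each of the 42 collagen genes, ordered by class, on arrays labelled RSL (left, purple) and DMSO (right, green). Bars are 95% intervals and filled points have an adjusted p under 0.05. The fibrillar genes hold the largest positive differences, up to 0.999 for Col1a1 under RSL, and the 9 FACIT genes hold no filled point.

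In type VI collagen the chains divided. Col6a1 read 10.09, 10.15 and 10.11 in the clone under DMSO, against 10.54, 10.50 and 10.47 in parental cells, a difference of -0.39 (standard error 0.035, adjusted p = 3.10e-07, 0.76-fold). Col6a2 read 9.51, 9.57 and 9.53 in the clone, against 9.90, 9.92 and 9.83 in parental cells under DMSO, a difference of -0.35 (standard error 0.039, adjusted p = 2.93e-06, 0.79-fold). Both were also lower under RSL, at -0.30 and -0.26 (adjusted p = 4.91e-06 and 5.57e-05), and neither overlapped. Col6a3, which joins them in the same trimer, was not lower. It read 10.71, 10.66 and 10.55 in the clone under DMSO, against 10.57, 10.49 and 10.54 in parental cells, an overlapping difference of 0.11 (adjusted p = 0.0976), and it stood at 0.00 under RSL (95% interval -0.10 to 0.10, adjusted p = 0.979). Col6a4 and Col6a5, chains related to that of Col6a3, were not called under either treatment.

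Col6a1 and Col6a2 are neighbours on chromosome 10, with 0 protein-coding genes between them, and Col6a3 lies on chromosome 1. The bases before each start are shown because these genes moved together or apart. All are on the minus strand of GRCm38.p6 (RefSeq): Col6a1 at chr10:76726045-76726294 (250 bases, 56.0% GC), Col6a2 at chr10:76623631-76623880 (250 bases, 59.2% GC) and Col6a3 at chr1:90844002-90844221 (220 bases, 56.4% GC). The sequences read 5′ to 3′ towards the gene, and capitals mark a GC box, GGGCGG, on the opposite strand.
Col6a1: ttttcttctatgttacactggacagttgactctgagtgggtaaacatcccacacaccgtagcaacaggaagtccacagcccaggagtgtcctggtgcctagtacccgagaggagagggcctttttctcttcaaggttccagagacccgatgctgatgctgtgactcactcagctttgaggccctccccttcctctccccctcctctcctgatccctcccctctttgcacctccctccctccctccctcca
Col6a2: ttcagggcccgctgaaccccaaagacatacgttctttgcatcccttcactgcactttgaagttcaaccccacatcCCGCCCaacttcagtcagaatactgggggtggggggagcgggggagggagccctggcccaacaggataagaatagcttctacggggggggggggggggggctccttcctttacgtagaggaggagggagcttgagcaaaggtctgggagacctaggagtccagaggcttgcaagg
Col6a3: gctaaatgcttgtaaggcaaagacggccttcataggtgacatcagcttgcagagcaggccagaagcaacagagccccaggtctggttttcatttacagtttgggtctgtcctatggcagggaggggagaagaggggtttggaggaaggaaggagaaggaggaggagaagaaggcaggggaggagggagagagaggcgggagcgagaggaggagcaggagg
The GC box of Col6a2 lies 175 to 170 bases before its start. The Col6a1 and Col6a3 windows hold no match to the CCAAT motif, the TATAAA motif or the GGGCGG motif on either strand. In windows of 220 bases these are found in 31.1%, 10.9% and 31.7% of 32851 RefSeq promoters in that order.

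The type IV genes did not all move one way. Col4a1 and Col4a2 are neighbours on chromosome 8 and encode the common trimer of basement membranes. Col4a1 read 9.92, 9.90 and 9.79 in the clone under DMSO, against 9.70, 9.73 and 9.65 in parental cells, 0.18 higher. Col4a2 read 9.81, 9.83 and 9.71 in the clone, against 9.50, 9.44 and 9.36 in parental cells, 0.35 higher (standard error 0.049, adjusted p = 3.04e-05), and 0.26 higher under RSL (adjusted p = 0.0005). Col4a5 and Col4a6, neighbours on the X chromosome, went opposite ways. Col4a6 read 7.36, 7.49 and 7.45 in the clone under DMSO, against 7.65, 7.54 and 7.67 in parental cells, a difference of -0.19 (adjusted p = 0.0056), and was at -0.28 under RSL (adjusted p = 0.000221). Col4a5 was at 0.10 under DMSO (adjusted p = 0.11) and 0.16 higher under RSL (adjusted p = 0.0106), or 0.0697 without inducible RSL replicate 2. Col4a3 and Col4a4, chains of specialised basement membranes such as that of the glomerulus, lay below the first quartile on all 12 arrays and were not called.

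In the remaining classes the differences between the cells lay between -0.23 and 0.15 over both treatments. None of 9 FACIT genes was called under DMSO or RSL, where 29.7% and 34.2% of all probe sets were. Differences of the FACIT genes lay between -0.06 and 0.06 over both treatments. Col8a1, a short-chain collagen of blood vessels and the cornea, was 0.10 higher in the clone under DMSO (adjusted p = 0.0447), a call that 12 of 21 alternative settings ended, 8 of them with 1 array left out (adjusted p up to 0.149), and 0.15 higher under RSL (adjusted p = 0.00352). Col10a1, the collagen of hypertrophic cartilage, was called under RSL alone, at 0.13 with overlapping arrays (adjusted p = 0.0408). It lay below the first quartile on 10 of 12 arrays and lost its call in 9 of 20 settings. Adjusted p-values reached 0.217 when inducible RSL replicate 1, inducible DMSO replicate 1 or 2, or parental RSL replicate 1 or 3 was left out. Also called under RSL alone were Col13a1, at -0.23 (adjusted p = 0.00171), and Col15a1, a multiplexin of basement membrane zones, at -0.16 (adjusted p = 0.0131). The call of Col15a1 ended without inducible RSL replicate 1 or parental RSL replicate 3 (adjusted p up to 0.0822). In these genes the calls under RSL stood beside differences of -0.02 to 0.02 under DMSO, and whether the cell line difference changed with RSL is the same contrast as the difference of RSL effects given above, in which none was called. Col7a1 of the anchoring fibrils, Col18a1, Col26a1 and the membrane collagens Col17a1, Col23a1 and Col25a1 were not called under either treatment.

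The difference between partner chains was also taken within each array, which removes any factor shared by the array. Such a difference depends on how brightly each probe set binds, so only its change between groups has meaning. These are transcript levels, and the ratio in which the chains assemble in these cells was not measured. An exact 2-sided permutation test of 3 against 3 arrays cannot go below p = 0.1, and 7 pairs were examined over 4 comparisons, so no p here could pass a threshold of 0.05. For Col1a1 minus Col1a2, the clone exceeded the parental cells by 0.87 under DMSO (standard error 0.07, p = 0.1, exact) and by 1.09 under RSL (standard error 0.03, p = 0.1, exact), with arrays apart in both. For Col5a1 minus Col5a2 the clone was at -0.33 under DMSO and -0.38 under RSL relative to parental cells, again with arrays apart. For Col6a1 minus Col6a2 the change was -0.04 under both, with arrays apart under DMSO (p = 0.1, exact) and overlapping under RSL (p = 0.4, exact), while for Col6a1 minus Col6a3 it was -0.49 under DMSO and -0.30 under RSL with arrays apart.

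With RSL, the within-array difference of Col6a1 and Col6a3 in inducible cells changed by 0.25 (standard error 0.06, p = 0.1, exact) and that of Col11a1 and Col11a2 by 0.19, both with arrays apart. In parental cells the Col6a1 and Col6a3 pair changed by 0.05 with overlapping arrays, and the Col11a1 and Col11a2 pair by -0.15 with arrays apart. Col5a1 minus Col5a2 changed by -0.12 in inducible cells and by -0.07 in parental cells, with arrays apart in each. Col1a1 minus Col1a2 changed by 0.14 in inducible cells and by -0.09 in parental cells, with arrays apart in each, and the size in inducible cells ranged from 0.07 to 0.19 with 1 array left out. The Col4a1 and Col4a2 pair moved by 0.04 with RSL in inducible cells (p = 0.2, exact) and by 0.02 in parental cells (p = 0.8, exact), and its arrays overlapped. Between the cells it changed by -0.17 under DMSO and -0.15 under RSL. Col8a1 minus Col8a2 overlapped in every comparison but the clone against parental cells under RSL.

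**Figure D4:**
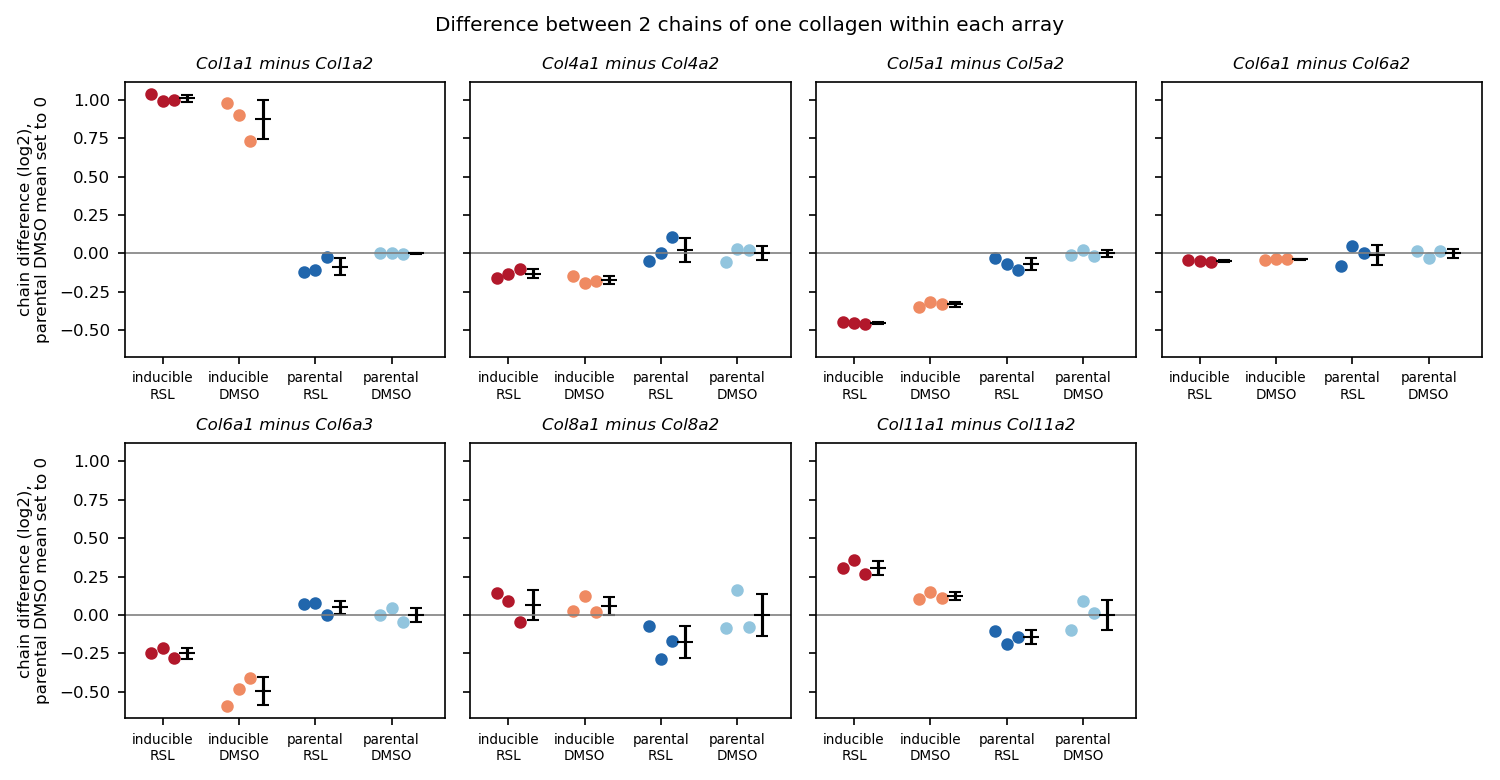
Difference between partner chains within each array, in log2 units, with the parental DMSO mean of each pair set to 0. Points are arrays and black bars are group means and SDs (n = 3). Col1a1 minus Col1a2 is 1.09 higher in inducible than in parental cells under RSL, Col6a1 minus Col6a2 is 0.04 lower, and Col6a1 minus Col6a3 lies below 0 in the inducible cells.

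Some collagen genes sit side by side in the genome, and the values of such neighbours were read together. With 0 protein-coding genes between them in the RefSeq annotation lie Col3a1 and Col5a2, Col9a1 and Col19a1, and Col4a4 and Col4a3 on chromosome 1, Col6a2 and Col6a1 on chromosome 10, Col4a1 and Col4a2 on chromosome 8, Col6a5 and Col6a4 on chromosome 9, and Col4a6 and Col4a5 on the X chromosome. Under DMSO both members were called in the same direction in Col3a1 and Col5a2, Col6a1 and Col6a2, and Col4a1 and Col4a2. In Col4a5 and Col4a6 only Col4a6 was called, and in the other pairs neither was. Under RSL the Col3a1 and Col5a2 pair and the Col6a1 and Col6a2 pair were again called together. Col4a2 was called there without Col4a1, and Col4a5 and Col4a6 were called in opposite directions. Of all probe sets, 29.7% were called under DMSO and 34.2% under RSL. Whether neighbours move together more than other genes was not tested.

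The genes that act on collagen were read next, from 5 lists of 56 genes of which 48 were measured. None passed the test for RSL in inducible cells, in parental cells or in the difference of these effects. The shares of all probe sets called were 2.54%, 0.0303% and 0.662% in that order. Differences of the 48 genes lay between -0.11 and 0.14 in inducible cells and between -0.19 and 0.09 in parental cells. Nearest in inducible cells were Plod2, a lysyl hydroxylase (0.14, adjusted p = 0.0587), and Lox, the lysyl oxidase that crosslinks fibrils (0.11, adjusted p = 0.066). At an unadjusted p under 0.05 there were 4 of the 48 in inducible cells and 7 in parental cells. Over all probe sets the shares at that level were 12.3% and 9.71%. With 1 array left out, a single one of the 48 was called in inducible cells in some cases, which was Serpinh1 without inducible RSL replicate 2, Plod2 without parental RSL replicate 3 and Lox without parental DMSO replicate 1. Plod2 and Lox both passed with an intensity trend, with array weights and with the lowest 40% of probe sets left out.

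Between the cells, 14 of the 48 were higher in the clone and 5 lower under DMSO, where 15.2% of all probe sets were higher and 14.5% lower. Under RSL 16 were higher and 5 lower, beside 17.5% and 16.8% of all probe sets. Median differences of the 48 genes were 0.04 under DMSO and 0.01 under RSL. Of 17 modifying enzymes and chaperones measured (of 20 listed), 8 were higher and 1 lower under DMSO. Serpinh1, the chaperone HSP47 that binds the triple helix, averaged 11.73 ± 0.02 in the clone and 11.37 ± 0.02 in parental cells (SD, n = 3 each), 0.36 higher (adjusted p = 1.13e-05 from limma). P4ha2, a catalytic subunit of prolyl 4-hydroxylase, was 0.32 higher (adjusted p = 4.95e-06), while P4ha1, its sister subunit, named here after its value was seen, was at -0.19 (adjusted p = 0.00349). The lysyl hydroxylases Plod1 and Plod2 were 0.31 and 0.26 higher (adjusted p = 9.16e-06 and 4.93e-05). The direction of the 4 genes that were higher held under RSL, at 0.44, 0.34, 0.32 and 0.38 in the order named. P4ha1 averaged 9.46 in the clone and 9.57 in parental cells under RSL and was not called there.

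Of 9 measured genes of export and propeptide trimming (13 listed), Bmp1, the procollagen C-proteinase, was called under DMSO, at -0.28 (adjusted p = 2.64e-05), and under RSL at -0.35. Under RSL 2 other genes of this list were called higher. Of the 5 crosslinking enzymes, Lox averaged 12.08 ± 0.005 in the clone and 11.76 ± 0.04 in parental cells under DMSO (SD, n = 3 each), 0.32 higher (adjusted p = 5.62e-07 from limma), and Loxl4 was 0.43 higher (adjusted p = 1.06e-07). Loxl3 went the other way, at -0.35 (adjusted p = 2.07e-07). Among 9 receptors and uptake genes (10 listed), Mrc2, the collagen uptake receptor Endo180, and Ddr2, a receptor kinase for fibrillar collagen, were 0.19 and 0.15 higher (adjusted p = 0.000377 and 0.0105). Among the 8 genes of degradation, Ctsk and Mmp2 were 0.17 and 0.14 higher, and Mmp14, a membrane collagenase, and Mmp13 were lower, at -0.21 and -0.14 (adjusted p = 0.0065, 0.0197, 7.90e-05 and 0.0194). Mmp13 readings lay low, at 5.71 in the clone and 5.85 in parental cells. Mmp2 was not called under RSL.

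**Figure D5:**
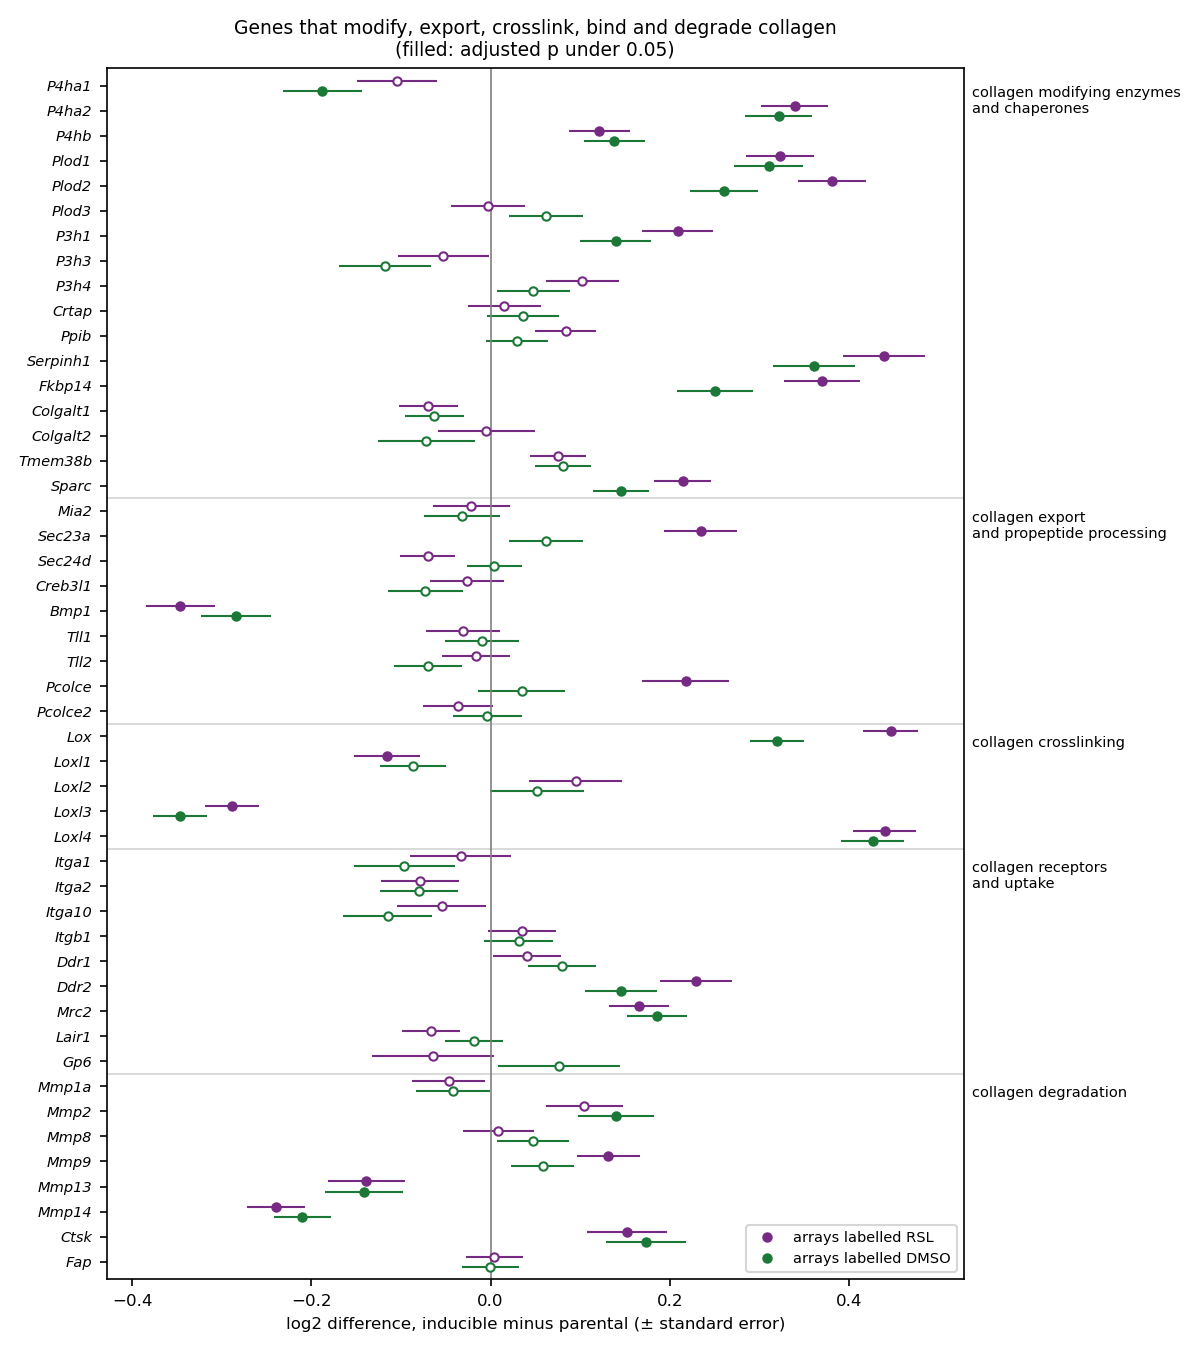
Log2 difference of inducible minus parental cells, with its standard error, for the 48 measured genes that modify, export, crosslink, bind and degrade collagen, on arrays labelled RSL (purple, upper of each pair) and DMSO (green, lower). Filled points have an adjusted p under 0.05, and Serpinh1, P4ha2, Lox and Loxl4 lie between 0.32 and 0.45 under both treatments.

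Markers of other cell types moved between the cells in both directions. Under DMSO, 5 of 10 fibroblast markers were higher in the clone and 2 lower, where 15.2% of all probe sets were higher and 14.5% lower. The counts higher and lower were 3 and 0 of 8 for epithelium, 1 and 2 of 8 for macrophages, 2 and 1 of 8 for endothelium, 0 and 1 of 7 for chondrocytes, 0 and 0 of 5 for osteoblasts, 2 and 0 of 6 for smooth muscle, and 1 and 0 of 4 for fat cells. The mean log2 level of the fibroblast list was 9.75 to 9.82 in the clone and 9.70 to 9.73 in parental cells under DMSO, and that of the smooth muscle list 7.17 to 7.19 and 7.05 to 7.10. Of the chondrocyte markers, Matn1, Matn3, Hapln1 and Cnmd lay below the first quartile on all 12 arrays. The part of these shifts in the collagen differences was not tested.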

How the data were processed

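Affymetrix Mm430_2.0 arrays were hybridized by the authors with RNA of 12 samples. The deposited table holds log2 values made by RMA background correction and quantile normalization, with genes defined by Entrez IDs through version 10 of a Custom CDF. That the base is 2 was inferred from the range of values, and the way probes were summarised is unstated in the paper and labels. Of 16539 probe sets, 64 hybridization controls were left out and 16475 were tested, all levels included. A gene symbol was annotated for 15780 of them, and 695 had none. Groups and replicate numbers came from the labels.

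In limma 3.58.1 (R 4.3.3), 4 group means were fitted to the 12 arrays together, leaving 8 residual degrees of freedom, with moderated variances and no block. The 5 comparisons drawn were the RSL effect in each of the cells, the contrast of both effects, and the clone over parental cells under each treatment. Some share arrays (the inducible DMSO arrays enter both an RSL effect and a cell line difference), so their values are only given side by side. Precision rests on 3 arrays per group. The standard errors of an RSL effect over the 42 collagen genes were 0.031 to 0.076. The script was tested on simulated data for RSL over DMSO in inducible cells with 16475 probe sets, where 66% of changes of 0.2 (log2) were recovered, 92% of 0.3 and 100% of 0.5, with 4 false calls among 183. There a small share of probe sets was changed, noise was normal and independent, and the cell lines did not differ. These rates check the script and are not the power of the real comparison.

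The collagen genes, classes and the companion and marker lists were chosen with earlier results of these data known. By the rule for naming, array values are given for collagen genes called for RSL, for the 8 largest called differences between the cells under DMSO, and for Col1a1, Col1a2, Col3a1, Col4a1 and Col4a2. The array values of Col13a1 and Col4a6 were added after they were seen. Companion genes are the called ones of smallest p, up to 4 per list. All 42 genes matched the RefSeq table, and 33 had a promoter window. Alternatives tried were the replicate number as a block, removal of the 40% of probe sets with the lowest mean, a variance trend with intensity, array weights, centring on array medians, a second quantile normalization, fits of the compared arrays alone, the one-way analysis of the methods, and leaving out each array.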

Additional observations from a re-analysis of the deposited data

How the results depend on the processing

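No called collagen gene changed direction. The difference itself cannot change when probe sets are filtered, a variance trend is fitted, or only the compared arrays are used. The same holds for the one-way analysis and for leaving out an array outside the comparison, so the sign was fixed there. Of 33 called results of single collagen genes, 17 kept their call under every alternative run, and over 686 such settings 619 kept the call and 67 lost it, with 0 reversed. For RSL in inducible cells (3 collagen genes called), counts ranged from 1 (without inducible DMSO replicate 1) to 3 with 1 array left out, and were 2 with the replicate block, 2 in only the arrays compared, 4 with array weights, 4 with an intensity trend and 4 at the nominal p of the methods' one-way analysis. After Benjamini-Hochberg that analysis called 0 (1 of all probe sets), and it called 9 of the 17 for the cells under RSL. In parental cells (0 called) array weights gave 1 (Col13a1) and the nominal p gave 2 (Col13a1 and Col9a2), with 0 whichever array was left out. For the difference of RSL effects (0 called) leaving out the lowest 40% gave 1 (Col27a1), array weights 3 (Col11a1, Col13a1 and Col27a1) and the nominal p 5 (these and Col1a1 and Col5a2). Between the cells, counts with 1 array left out were 12 to 14 under DMSO (13) and 14 to 18 under RSL (17). With 1 array left out, 0 to 1 of the 48 genes that act on collagen were called for RSL in inducible cells. Between the cells those runs called 16 to 19 under DMSO (19) and 18 to 22 under RSL (21). Other settings reached 4 for RSL in inducible cells, at the nominal p. Between the cells they ran from 12 (replicate block) to 21 (array weights) under DMSO. Under RSL they ran from 15 (one-way analysis after Benjamini-Hochberg) to 24 (lowest 40% left out). The causes were not tested.

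Replicate numbers did not clearly pair the arrays. Same-numbered deviations from the group means correlated at 0.07, -0.01 and 0.21 in inducible cells and at -0.10, -0.27 and 0.14 in parental cells. Inducible RSL replicates 1 and 3 and parental RSL replicate 3 correlated best with the DMSO array of their own number, and the other RSL arrays did not. With 3 arrays per group, this does not settle whether the arrays were paired. Over all probe sets, calls for RSL in inducible cells numbered 418, and 736 with array weights, 1913 at the nominal p and 204 without inducible DMSO replicate 1. With the number as a replicate block, 2 collagen genes were called for RSL in inducible cells, 0 in parental cells, 0 for the difference, 9 between the cells under DMSO and 13 under RSL. The calls lost were Col27a1 for RSL in inducible cells, Col1a2, Col4a1, Col8a1 and Col11a1 under DMSO, and Col1a2, Col8a1, Col10a1 and Col11a2 under RSL. Chain differences under other scalings and with 1 array left out were chosen after seeing the data. Under other scalings only Col6a1 minus Col6a2 in inducible cells changed sign, at -0.00926 as deposited and 0.00958 after repeated quantile normalization. Col8a1 minus Col8a2 there ran from -0.03 to 0.06 with 1 array left out. The limits are 3 arrays per group, 1 clone, probe sets of unknown position and readings near the low end for 12 genes.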
